A study of Mus musculus with 50 samples.

Results

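Tracheal perfusate RNA of mice given ovalbumin (OVA) was compared with that of mice given saline (PBS) on 5 arrays each, 10 of the 50 arrays of the study. The arrays were chosen by their titles, and no measured value entered the choice. The study asked how IL-13 acts on the airway epithelium itself, and its other 15 perfusate arrays came from IL-13 mice that were Stat6+/-, Stat6-/- or Stat6-/- Epi+, with 5 arrays in each group. Whole lung arrays, made from unamplified cDNA, covered the same 5 groups, and the whole lung OVA and PBS arrays, unlike all others, were of another array design. Each array paired a reference RNA in channel 1 with the sample in channel 2, and each value is a log2 ratio of the 2 channels. Every perfusate array used 1 of 5 reference preparations (1.1 to 1.5), and each preparation held 1 array of every group. RNA of the perfusate arrays went through 1 round of amplification per the labels, except that no amplification is stated for the 2 arrays of preparation 1.3, OVA array 28 and PBS array 22. The labels do not state strain, age, sex, Stat6 genotype or dosing of the OVA and PBS mice, or how the perfusate was obtained. Arrays are named below by the numbers in their titles, OVA 28 to 32 and PBS 22 to 26. No label says that they came from separate animals, so the p-values reflect differences among the arrays themselves, and part of that spread may be technical.

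Ovalbumin is the standard experimental allergen of mouse asthma models, and saline is its vehicle. Allergic inflammation recruits T helper cells that release IL-4, IL-5 and IL-13. IL-13 acts through the IL-4 receptor alpha chain and the transcription factor STAT6, and in airway epithelium it turns secretory cells into mucus-filled goblet cells. The same cytokines bring eosinophils and mast cells to the airway and switch macrophages to an alternatively activated state.

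Each array was centred on its own median, and differences are OVA minus PBS on the log2 scale with the reference preparation as a block. Of 16873 probes with values on at least 3 arrays of every group, 40 (0.237%) passed limma's test at an adjusted p of 0.05, 29 (0.172%) higher and 11 (0.0652%) lower in OVA. The spread in that test came from all 25 perfusate arrays. When limma was fitted to the 10 OVA and PBS arrays alone, 0 probes passed, against 1799 at an unadjusted p under 0.05. In the fit to 25 arrays, 1545 probes (9.16%) had an unadjusted p under 0.05. The median difference over all probes was -0.01. The named probes numbered 24 higher and 9 lower, and 7 probes carried no gene name. All 33 named genes kept 1 direction in every reference preparation that held both values. The test was blocked on preparation and favours such genes, so this is not separate support for the calls. Among the 33 named genes, 12 kept their call when any 1 of the 10 arrays was left out (Clca1, Muc5ac, Atp2a1, Nadsyn1, Scin, Slc26a4, Pcdhgb6, Rnase2a, Cd5l, Col6a4, Mcpt2 and Mrpl3). The total fell from 40 to 17 without PBS 24, to 25 without OVA 31 and to 26 without PBS 23. Of the 33 named calls, 21 ended without PBS 24, 15 without PBS 23 or OVA 31, 13 without PBS 25, 12 without PBS 22, 11 without OVA 29 or OVA 32, 10 without OVA 28 or PBS 26, and 7 without OVA 30.

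The direction of the ratios is not stated in the sources, and sample over reference is the likely one. The Il13 probe averaged 1.77 ± 0.44 (SD, n = 5) in IL-13 Stat6+/- mice, 2.76 ± 0.55 in Stat6-/- and 2.09 ± 0.35 in Stat6-/- Epi+ mice, against 0.04 ± 0.34 in PBS and -0.19 ± 0.17 in OVA. A ratio to a reference gives no absolute level, so cell types could be compared between arrays but not checked for presence. PBS 25 stood apart, with a median correlation of 0.0987 with its own group against 0.358 to 0.483 for the other PBS arrays and 0.282 to 0.449 for OVA arrays. Without it, 31 probes passed. OVA arrays held values at 17688 to 18202 spots and PBS arrays at 16767 to 18347. RNA came from mixed cells, so fewer cells of a type and less RNA per cell cannot be told apart.

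Mucous cell genes were among the largest rises. Clca1, a secreted protein of goblet cells, had ratios on OVA 28 to 32 of 2.67, 2.42, 2.12, 2.51 and 1.87, and on PBS 22 to 26 of -0.39, -1.19, -1.75, -1.75 and -0.30. The groups did not overlap, as was true of 165 probes (0.978%) with OVA above PBS. Clca1 was 3.39 ± 0.31 (SE) higher in OVA, a 10.5-fold difference, with a limma adjusted p of 1.98e-05. Muc5ac, the main inducible airway mucin, had ratios of 3.27, 1.93, 2.83, 3.45 and 3.30 on the OVA arrays and of 0.54, -0.08, -0.36 and 0.14 on PBS 22, 23, 25 and 26, with no value on PBS 24. Its 4 PBS arrays all lay below every OVA array. Muc5ac was 2.81 ± 0.32 higher (limma adjusted p = 0.000196). Slc26a4, the anion exchanger pendrin, was 1.63, 1.46, 2.00, 2.22 and 1.73 in OVA and 0.21, 0.22, 0.27, 0.20 and -0.17 in PBS. Its groups were separate and tight, and its difference was 1.66 ± 0.28 (limma adjusted p = 0.0108).

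The list of mucous cell and mucus genes had 33 measured members. Of these, 3 rose (Clca1, Muc5ac and Slc26a4), none fell and 28 were above 0, against 48.9% of all probes, with a median difference of 0.40 against -0.01 over all probes. At an unadjusted p under 0.05, 16 of 33 were higher, against 4.2% of all probes. Itln1, an intelectin of mucous cells, differed by 2.13 ± 0.50, Tff1, a trefoil peptide secreted with mucin, by 1.95 ± 0.42, and Pla2g10, a secreted phospholipase, by 1.62 ± 0.37. None of these passed limma's test (adjusted p = 0.0892, 0.0679 and 0.0838), although Tff1 passed under 4 alternatives and Pla2g10 under 2. Tff2 differed by 1.16, Clca3b by 0.97, Spdef, a transcription factor of goblet cells, by 0.69, Muc5b, the mucin made in the resting airway, by 0.67, and Agr2, a mucin folding enzyme, by 0.46, and none passed, although Tff2 did under 2 alternatives. The mean ratio over 27 mucous genes measured on every array was 0.48 to 0.82 in OVA and -0.15 to 0.17 in PBS, with no overlap. This mean includes the called genes Clca1 and Slc26a4.

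**Figure D1:**
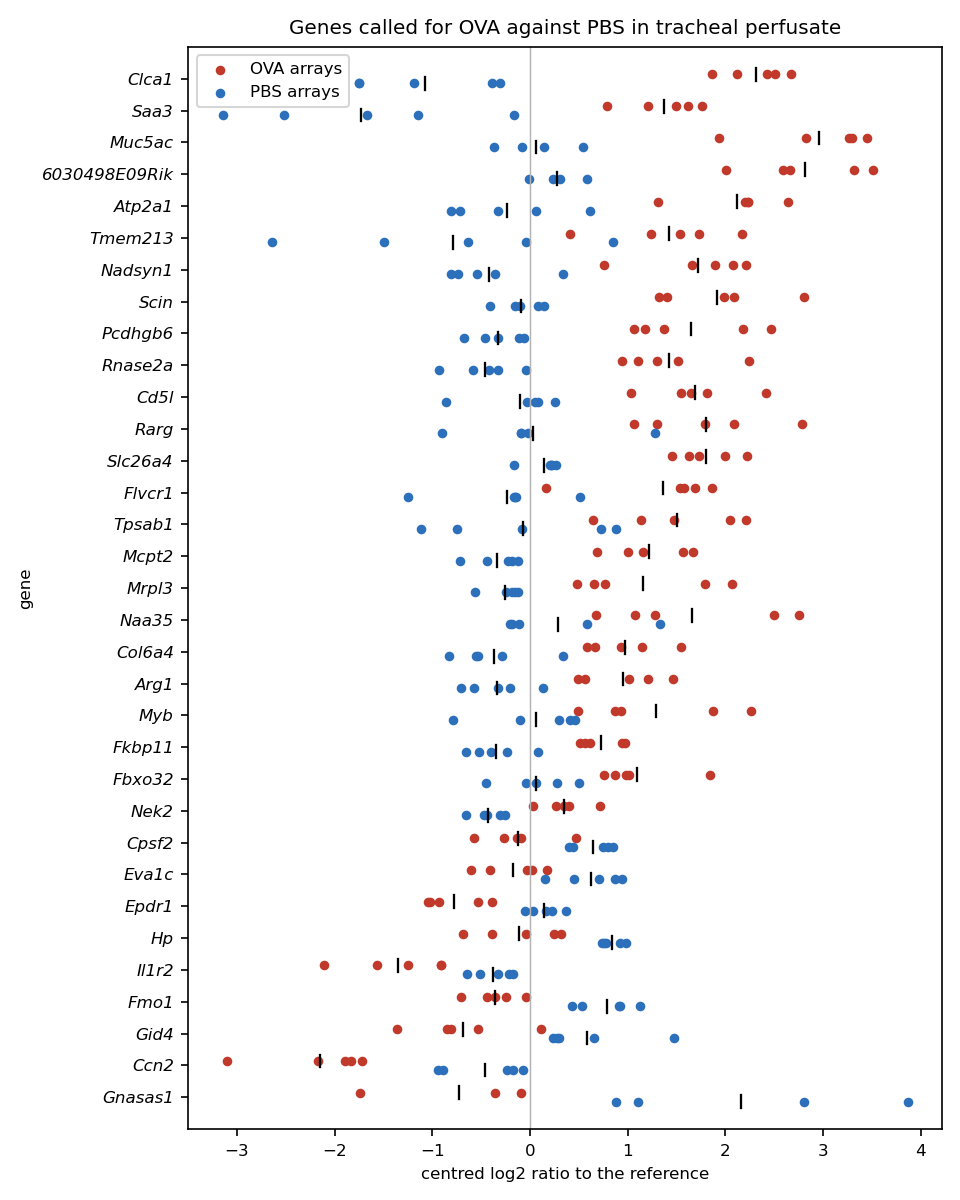
Centred log2 ratios of the 33 named genes called for OVA against PBS, with OVA arrays in red, PBS arrays in blue and bars at the group means. Clca1, Muc5ac and Atp2a1 show 5 OVA arrays above all PBS arrays, while Rarg and Tpsab1 overlap between groups.

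Genes not usually counted as mucus genes rose by similar amounts. Atp2a1, a calcium pump best known from fast skeletal muscle, was 2.20, 1.31, 2.23, 2.64 and 2.23 in OVA and -0.72, 0.07, -0.32, -0.81 and 0.61 in PBS. The groups were separate, and Atp2a1 was 2.36 ± 0.27 higher (limma adjusted p = 0.000196). Scin, an actin-severing protein, had OVA values of 1.32, 1.40, 2.09, 2.80 and 1.98 against PBS values of 0.14, -0.10, 0.08, -0.41 and -0.15. It was 2.01 ± 0.23 higher with no overlap (limma adjusted p = 0.000196). Nadsyn1, which makes NAD, was 2.21, 0.76, 1.89, 1.66 and 2.08 in OVA and -0.74, -0.54, -0.35, -0.80 and 0.34 in PBS, and was 2.14 ± 0.27 higher (limma adjusted p = 0.000738). OVA 29 was the lowest OVA array for Atp2a1 and Nadsyn1, and it still lay above every PBS array. Col6a4, a collagen VI chain, rose by 1.35 ± 0.19 (limma adjusted p = 0.00264).

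Atp2a1 also belonged to a list of 29 measured muscle genes, of which no other member passed. Of the 29, 21 were above 0 (48.9% of all probes), with a median of 0.26. Acta1 differed by 0.43 ± 0.63 and Ckm by 0.42 ± 0.55. The mean ratio of 25 muscle genes without Atp2a1 ran from -0.69 to 0.90 on OVA arrays and from -0.82 to 0.19 on PBS arrays. Muscle genes varied widely within both groups, and Atp2a1 was higher on the lowest OVA array (1.31) than on the highest PBS array (0.61).

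An earlier report of these data gave a list of 9 epithelial genes as co-responding. The promoters of Atp2a1, Nadsyn1, Scin and Slc26a4 are shown because these were its 4 called members. Its other members did not pass, with Cldn2 at 1.07, Car2 at 0.54, Plat at 0.29, Corin at 0.08 and Spink1 at -0.38. STAT proteins bind palindromes of TTC and GAA half-sites, and STAT6 is known to bind best when 4 bases lie between them. The sequences, from RefSeq on build GRCm38.p6, run 5′ to 3′ on the gene's strand from 250 bases before to 50 after the annotated start, and capitals mark a match to TTCNNNGAA or TTCNNNNGAA.
Atp2a1, chr7:126463024-126463323, minus strand: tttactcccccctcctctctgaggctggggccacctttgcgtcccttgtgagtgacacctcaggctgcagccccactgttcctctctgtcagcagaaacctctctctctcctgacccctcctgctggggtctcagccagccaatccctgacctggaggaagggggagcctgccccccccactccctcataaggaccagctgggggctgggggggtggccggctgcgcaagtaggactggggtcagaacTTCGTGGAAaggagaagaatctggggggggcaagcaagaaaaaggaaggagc
Nadsyn1, chr7:143822803-143823102, minus strand: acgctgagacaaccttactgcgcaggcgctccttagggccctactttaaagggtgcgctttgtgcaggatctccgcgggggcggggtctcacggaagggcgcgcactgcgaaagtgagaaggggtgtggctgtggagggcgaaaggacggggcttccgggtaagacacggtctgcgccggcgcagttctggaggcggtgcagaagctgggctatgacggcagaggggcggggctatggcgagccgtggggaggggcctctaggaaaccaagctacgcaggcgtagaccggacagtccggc
Scin, chr12:40134179-40134478, minus strand: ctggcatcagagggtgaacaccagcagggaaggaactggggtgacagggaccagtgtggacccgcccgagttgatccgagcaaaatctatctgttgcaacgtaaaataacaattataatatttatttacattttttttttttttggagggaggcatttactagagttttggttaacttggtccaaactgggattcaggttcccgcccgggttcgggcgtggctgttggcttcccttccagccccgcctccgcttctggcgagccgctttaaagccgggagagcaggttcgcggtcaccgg
Slc26a4, chr12:31559935-31560234, minus strand: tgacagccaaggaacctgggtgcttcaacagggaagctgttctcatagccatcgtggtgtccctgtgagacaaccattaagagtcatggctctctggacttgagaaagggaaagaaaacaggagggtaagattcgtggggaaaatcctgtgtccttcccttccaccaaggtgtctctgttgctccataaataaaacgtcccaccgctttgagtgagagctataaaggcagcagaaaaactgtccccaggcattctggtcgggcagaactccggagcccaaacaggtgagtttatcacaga
Of these 4 windows, the Atp2a1 window held the match TTCGTGGAA, which starts at base -2, and the other 3 had none. Both motifs read the same on either strand. Counted per gene, TTCNNNGAA was in 9.55% of the 27025 genes with a window (8.3% of windows), in 1 of 17 risers and in 1 of 5 fallers. TTCNNNNGAA was in 8.01% of genes (6.95% of windows), in 2 of 17 risers (Cd5l and Naa35) and in 0 of 5 fallers. A match describes the letters only, and the Clca1, Muc5ac, Arg1 and Mcpt2 promoters were not analysed here.

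Mast cell proteases and a ribonuclease of the eosinophil-associated family rose. Mcpt2, a chymase of mucosal mast cells, was 1.57, 1.01, 1.67, 1.16 and 0.69 in OVA and -0.18, -0.44, -0.71, -0.23 and -0.12 in PBS. The groups were separate, and Mcpt2 was 1.55 ± 0.23 higher (limma adjusted p = 0.00279). Tpsab1, a mast cell tryptase that RefSeq lists as a transcribed pseudogene, was 2.22, 0.64, 2.05, 1.14 and 1.47 in OVA and 0.88, -0.74, -0.08, -1.11 and 0.73 in PBS. Its groups overlapped, but OVA was higher in all 5 preparations, by 1.57 ± 0.29 (limma adjusted p = 0.0249), and its call ended in 6 of the 10 omissions. Rnase2a, the ribonuclease of the eosinophil-associated family, was 0.94, 1.52, 1.30, 2.24 and 1.10 in OVA and -0.33, -0.58, -0.04, -0.93 and -0.42 in PBS. It was 1.88 ± 0.31 higher with no overlap (limma adjusted p = 0.00985). These genes have close relatives, and probes could cross-hybridize with them.

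In the list of eosinophil, basophil and mast cell genes, 3 of 18 measured members rose and none fell, against 0.172% and 0.0652% of all probes. The median difference was 0.10. At an unadjusted p under 0.05, 5 were higher and 0 lower, against 4.2% and 4.96% of all probes. The eosinophil granule proteins Epx and Prg2 differed by 0.20 ± 0.29 and 0.16 ± 0.29 and did not pass (limma adjusted p = 0.903 and 0.920). Cpa3, the mast cell carboxypeptidase, differed by 0.87 ± 0.36 and Tpsb2 by 0.37 ± 0.12, and neither passed (limma adjusted p = 0.447 and 0.268). The mean ratio of the 18 genes was 0.14 to 0.42 in OVA and -0.38 to 0.01 in PBS, with no overlap. This mean includes the 3 called genes, so it is not separate from their calls and does not show a rise across the list.

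Macrophage-associated genes gave few calls. Cd5l, a scavenger protein that macrophages secrete, was 1.04, 1.81, 1.65, 2.42 and 1.55 in OVA and -0.03, 0.26, -0.85, 0.08 and 0.05 in PBS. It was 1.79 ± 0.27 higher, with separate groups (limma adjusted p = 0.00419). Arg1, an arginase and marker of alternative activation, was 0.57, 0.49, 1.21, 1.47 and 1.01 in OVA and -0.33, 0.13, -0.57, -0.70 and -0.20 in PBS. It was 1.28 ± 0.22 higher (limma adjusted p = 0.0108), and its call ended when PBS 24 was left out. In the list of alternative activation genes, 1 of 21 rose and the median was 0.19, and Retnla differed by 1.13 ± 0.55 with overlapping groups (limma adjusted p = 0.559). Of the 21, 6 were higher and none lower at an unadjusted p under 0.05, against 4.2% and 4.96% of all probes. The mean ratio of 16 of the 21, Arg1 included, was 0.24 to 0.52 in OVA and -0.32 to 0.15 in PBS, without overlap.

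Among 27 macrophage and monocyte genes 1 rose (Cd5l), 6 were higher and 3 lower at an unadjusted p under 0.05, against 4.2% and 4.96% of all probes, and the median was 0.21. Cd163, a haemoglobin scavenger receptor, differed by 1.25 ± 0.38, the Fc receptors Fcgr3 and Fcgr2b by 1.18 ± 0.39 and 1.16 ± 0.36, and Marco, a scavenger receptor, by -1.80 ± 0.78, and none passed. The general markers Cd68 and Adgre1 differed by 0.08 ± 0.13 and -0.11 ± 0.19. The mean ratio of 24 such genes was -0.09 to 0.20 in OVA and -0.55 to 0.01 in PBS, with overlap.

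Saa3, an acute phase apolipoprotein, was 1.21, 0.79, 1.62, 1.76 and 1.50 in OVA and -3.14, -0.17, -1.66, -2.51 and -1.14 in PBS. The PBS arrays spread widely but lay below all OVA arrays, and Saa3 was 3.10 ± 0.59 higher (limma adjusted p = 0.0275). Its call ended in 8 of the 10 single-array omissions. Hp, the haemoglobin-binding acute phase protein haptoglobin, fell instead. It was 0.24, -0.04, 0.31, -0.69 and -0.39 in OVA and 0.76, 0.98, 0.93, 0.74 and 0.77 in PBS, a difference of -0.95 ± 0.19 (limma adjusted p = 0.0384) that lost its call in 7 of the 10 omissions. In the list of 25 host defence and acute phase genes, 1 rose and 1 fell, against 0.172% and 0.0652% of all probes. Slpi, a protease inhibitor of mucosal fluid, differed by 1.15 ± 0.35 without passing (limma adjusted p = 0.233).

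The other named genes that rose had varied roles. Pcdhgb6, a protocadherin of a clustered family, was 1.98 ± 0.23 higher (limma adjusted p = 0.000196), and its relatives may share the probe. Rarg, a retinoic acid receptor, rose by 1.77 ± 0.30, although PBS 25 at 1.28 lay within the OVA range, and its call ended without PBS 24. Flvcr1, a haem and choline transporter, rose by 1.60 ± 0.27, with OVA 29 at 0.16 below the highest PBS array, and its call also ended without PBS 24. Tmem213 rose by 2.21 and 6030498E09Rik by 2.42, and each lost its call in 8 or 9 of the 10 omissions. Myb, a transcription factor of blood progenitors, rose by 1.23 ± 0.23, Fbxo32, a ubiquitin ligase subunit, by 1.03, Naa35, an acetyltransferase subunit, by 1.37, and Nek2, a mitotic kinase, by 0.78. Their calls ended in 6, 5, 5 and 8 of the 10 omissions. Mrpl3, a mitochondrial ribosomal protein, rose by 1.41 ± 0.22 on one probe, but its other probe differed by 0.10 ± 0.25. Fkbp11, a folding enzyme, likewise rose by 1.07 ± 0.20 on one probe and differed by -0.14 ± 0.27 on the other, and its call ended in 6 of the 10 omissions.

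Fewer genes were called lower than higher, while at an unadjusted p under 0.05 837 probes were lower and 708 higher. Ccn2, a matricellular growth factor, was -3.10, -1.90, -2.17, -1.83 and -1.72 in OVA and -0.94, -0.23, -0.17, -0.07 and -0.89 in PBS. The groups were separate, and Ccn2 fell by 1.68 ± 0.29, 3.21-fold (limma adjusted p = 0.0115), a call that ended without PBS 24. Fmo1, a flavin-containing monooxygenase that oxidizes foreign compounds, was -0.71, -0.25, -0.44, -0.36 and -0.04 in OVA and 0.44, 0.53, 0.91, 1.13 and 0.93 in PBS. Every OVA array lay below every PBS array, as for 205 probes (1.21%), and Fmo1 fell by 1.15 ± 0.20 (limma adjusted p = 0.0144), a call lost in 5 of the 10 omissions. Il1r2, a decoy receptor for IL-1 on neutrophils and other cells, fell by 0.97 ± 0.20 (limma adjusted p = 0.0457), and its call ended in 9 of the 10 omissions. Gnasas1, an antisense RNA of the imprinted Gnas locus, differed by -3.55 ± 0.68 on 3 OVA and 4 PBS arrays, which gave both values in 2 preparations. Gid4 (-1.28), Epdr1 (-0.93), Eva1c (-0.79) and Cpsf2 (-0.77) also fell. Their calls ended in 7, 8, 10 and 8 of the 10 omissions, and that of Gnasas1 in 6.

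Several lists held no call or 1, with medians away from 0. Among 45 detoxification and glutathione genes, 1 fell (Fmo1), none rose, and the median was -0.35. At an unadjusted p under 0.05, 16 of 45 were lower, against 4.96% of all probes. Cyp4b1, a cytochrome P450 of lung epithelium, differed by -0.83 ± 0.19, Ephx1, an epoxide hydrolase, by -0.60 ± 0.13, and Adh1, an alcohol dehydrogenase, by -0.86 ± 0.22, and none passed limma's test (adjusted p = 0.0879, 0.0580 and 0.138). The mean ratio of 42 such genes, Fmo1 included, was -0.50 to -0.27 in OVA and -0.25 to 0.06 in PBS, without overlap.

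Of 19 measured genes of MHC class II presentation, 0 passed limma's test, 8 were higher at an unadjusted p under 0.05 (4.2% of all probes), and the median difference was 0.71. H2-Aa, a class II chain, was 1.54, 0.61, 1.14, 0.87 and 1.05 in OVA and 0.90, -0.29, 0.29, -0.73 and 0.51 in PBS, with overlap. Its difference was 0.90 ± 0.39 (limma adjusted p = 0.484). Cd74, the invariant chain, differed by 1.10 ± 0.42, and Ctss, the protease that trims it, by 0.95 ± 0.22 (limma adjusted p = 0.396 and 0.0838). Ctss passed under 3 alternatives. The mean of 16 genes was 0.37 to 0.71 in OVA and -0.53 to 0.20 in PBS, and the groups did not overlap.

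Among 45 cell cycle and replication genes, 0 passed and 35 were above 0 (48.9% of all probes), with a median of 0.40. At an unadjusted p under 0.05, 18 were higher (4.2% of all probes) and none was lower (4.96%). The mean ratio of 43 such genes was 0.43 to 0.77 in OVA and 0.11 to 0.44 in PBS, with overlap. Mki67, a proliferation marker, was 1.65, 1.73, 1.54, 2.17 and 2.43 in OVA and 0.68, 0.52, 1.09, -0.08 and 1.78 in PBS. PBS 26 overlapped the OVA arrays, and the difference was 1.10 ± 0.36 (limma adjusted p = 0.281). Cdk1, the kinase that starts mitosis, differed by 0.91 ± 0.22 (limma adjusted p = 0.0948).

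Of 31 chemokines none passed, and members lay on both sides of 0. Ccl8, a monocyte and eosinophil attractant, differed by 1.63 ± 0.52 and Ccl6 by 1.16 ± 0.31, while Ccl20, which attracts dendritic cells and Th17 cells, differed by -1.04 ± 0.24 and Cxcl1, a neutrophil attractant, by -1.11 ± 0.53. Ccl11, the eosinophil attractant eotaxin, differed by 0.07 ± 0.49, a sign that turned under 6 alternatives. Il13 itself differed by -0.23 ± 0.21 and Stat6 by -0.34 ± 0.14, and neither passed. Of 29 immediate early and heat shock genes none passed, and 10 were lower and 2 higher at an unadjusted p under 0.05, against 4.96% and 4.2% of all probes. Among them, Hspa1a, an inducible chaperone, was -2.79, -0.60, -2.50, -2.35 and -2.73 in OVA and -0.18, -1.11, -0.54, 0.91 and -1.26 in PBS. OVA 29 alone overlapped PBS, and the difference was -1.76 ± 0.42 (limma adjusted p = 0.0981). This Hspa1a value averages 17 spots, which taken singly differed by -2.58 to -1.15. The lowest of them passed on its own (limma adjusted p = 0.0016). The near-identical copy Hspa1b differed by 2.02 ± 0.85, so values of the pair are uncertain.

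Lists of other airway cells gave few calls. Among 21 ciliated cell genes none passed and the median was 0.06, and Foxj1, the master regulator of motile cilia, differed by 0.30 ± 0.26. Of 17 club and other secretory cell genes 1 fell (Hp), against 0.0652% of all probes. Scgb1a1, the club cell secretoglobin, differed by 0.04 ± 0.22, and the basal cell keratin Krt5 by -0.41 ± 0.23. Of 22 T and NK cell genes none passed, 17 were above 0 (48.9% of all probes) and the median was 0.32. At an unadjusted p under 0.05, 2 were higher and 1 lower, against 4.2% and 4.96% of all probes. The mean ratio of 21 of the T and NK cell genes was -0.18 to 0.33 in OVA and -0.35 to -0.29 in PBS, without overlap. The T cell receptor chains differed unequally, Cd3g by 1.67 ± 0.62, Cd3d by 0.71 ± 0.41 and Cd3e by -0.01 ± 0.15, and Gzma, a granzyme of cytotoxic cells, differed by 0.83 ± 0.27. For 13 neutrophil genes the median was -0.04 and 1 fell (Il1r2), against 0.0652% of all probes. Housekeeping genes had a median of -0.04 over 16 genes.

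**Figure D2:**
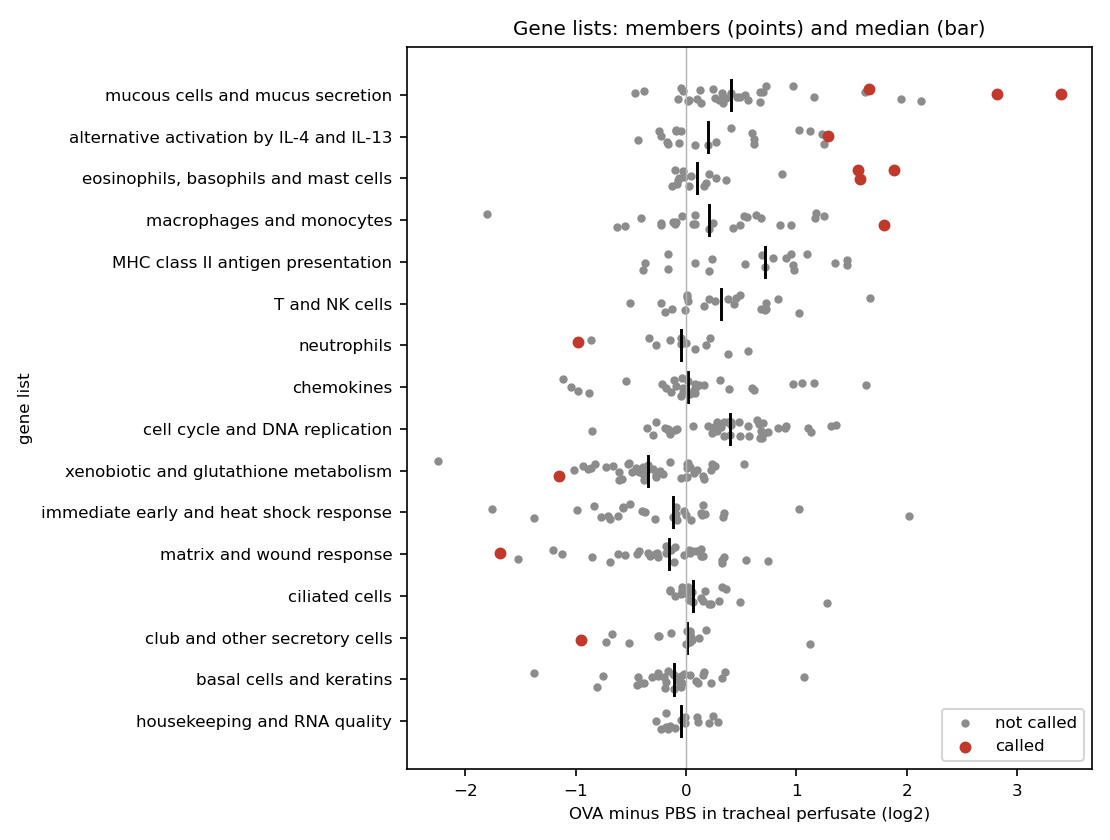
OVA minus PBS differences (log2) of the measured members of 16 gene lists, with called genes in red and a bar at each list's median. Mucous (median 0.40), MHC class II (0.71) and cell cycle (0.40) genes lie mostly to the right, and detoxification genes (-0.35) to the left.

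The same treatments were compared on whole lung arrays, which shared no array with the perfusate comparison. There 299 of 17047 probes (1.75%) passed limma's test, 256 higher (1.5%) and 43 lower (0.252%). The split was 35 to 1 without centring and 180 to 78 after quantile normalization. Before centring, the array medians differed by -0.166 between OVA and PBS, and centring removed this shift. The median difference over all probes was -0.144 without centring and 0.0282 with it, so whole lung directions are relative to the median probe. Leaving out OVA 1 of the whole lung arrays gave 109 probes, PBS 2 gave 105, PBS 3 gave 179, PBS 4 gave 117 and PBS 5 gave 115. Of the 29 probes higher in perfusate, 24 were measured in whole lung, 21 had the same direction (51.8% of all whole lung probes were above 0) and 9 were called, with a median difference of 2.30. Of the 11 lower probes, 8 were measured, 5 had the same direction and 0 were called, with a median of -0.48. The 9 shared calls made up 22.5% of the perfusate calls and 3.01% of the whole lung calls.

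In whole lung Clca1 was 6.13 ± 0.47 higher, Arg1 5.66 ± 0.57, Atp2a1 5.03 ± 0.89, Rnase2a 4.73 ± 0.55, Nadsyn1 4.49 ± 0.54 and Muc5ac 4.00 ± 0.57. Mrpl3, Slc26a4 and Saa3 completed the 9, at 4.06, 3.50 and 3.46. Scin, 2.01 higher in perfusate, differed by 0.44 ± 0.32 in whole lung (limma adjusted p = 0.535), and Rarg by -0.09 ± 0.29. Il1r2 lay in opposite directions, at -0.97 in perfusate and 1.71 ± 0.45 in whole lung (limma adjusted p = 0.0881). The cell cycle list had 13 of 44 genes called higher in whole lung, against 1.5% of all whole lung probes. The macrophage list had 10 of 27, alternative activation 8 of 21, and chemokines 11 of 31. The mucous list had 8 of 33, interferon response genes 7 of 28, complement genes 5 of 20 and B and plasma cell genes 4 of 17. Lists with fewer such calls included T and NK cells with 1 of 21, MHC class II with 1 of 19 and neutrophils with 0 of 13. Differences between the tissues were not tested, because array designs and amplification differ.

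**Figure D3:**
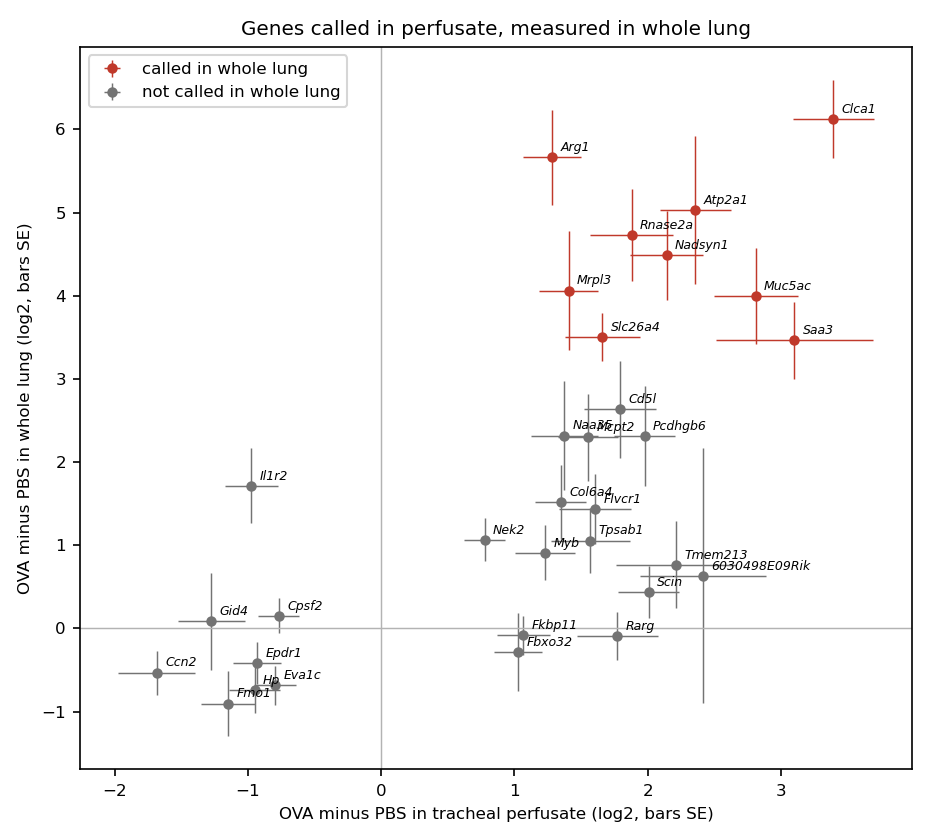
OVA minus PBS (log2) in perfusate against whole lung for the named genes called in perfusate and measured in both, with SE bars and whole lung calls in red. The 9 red genes, Clca1, Muc5ac and Arg1 among them, are higher in both, and Il1r2 is at -0.97 in perfusate and 1.71 in whole lung.

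The OVA arrays were also set against the IL-13 Stat6+/- perfusate arrays, a comparison that shares the OVA arrays with the one above. In it 603 probes (3.57%) passed limma's test, 335 higher (1.99%) and 268 lower (1.59%) in OVA. This count was 3 when the 10 arrays were fitted alone, and it ran from 324 without OVA 31 to 655 over single-array omissions. The called mucus genes did not pass, and neither did Atp2a1, Nadsyn1 and Scin. Clca1 differed by 0.54 (95% interval -0.10 to 1.18), Muc5ac by 0.19 (-0.43 to 0.81), Slc26a4 by -0.07 (-0.66 to 0.52), Atp2a1 by -0.08 (-0.64 to 0.48), Nadsyn1 by -0.07 (-0.65 to 0.50) and Scin by -0.08 (-0.57 to 0.40). The intervals bound these differences but do not show equal levels.

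Some genes called higher against PBS were also higher in OVA than in IL-13 Stat6+/- arrays, and not only genes of inflammatory cells. They were chosen for high values on these same OVA arrays, which favours a difference here, so their p-values are not separate support. Among the preset markers, Epx, Prg2, Cd68 and Cd3e differed by -0.28, 0.03, -0.24 and -0.33, H2-Aa by 0.43 and Muc5b by 0.48. Ccl11 differed by -1.12 and Alox15 by -0.54, and none of these passed limma's test. The preset marker Mki67, which did not pass against PBS, was 1.39 ± 0.36 higher and passed (limma adjusted p = 0.0400). Tpsab1 was 2.49 ± 0.29 higher, Arg1 2.01 ± 0.22, Mcpt2 1.82 ± 0.23, Rnase2a 1.51 ± 0.31 and Cd5l 1.30 ± 0.27, each passing limma's test (adjusted p = 0.000118, 4.48e-05, 0.000172, 0.0104 and 0.0115). Called genes of other roles passed as well. Myb was 1.59 higher, Pcdhgb6 1.56, Naa35 1.29 and Mrpl3 1.14 (limma adjusted p = 0.000556, 0.000704, 0.00687 and 0.00641). Mean ratios of Arg1 were 0.95 ± 0.42 (SD, n = 5) in OVA, -0.33 ± 0.33 in PBS, -1.06 ± 0.49 in IL-13 Stat6+/-, -0.59 ± 0.33 in Stat6-/- and -0.84 ± 0.11 in Stat6-/- Epi+ arrays. Arg1 was thus highest in OVA, and the PBS arrays lay next. Saa3 was 2.67 ± 0.59 higher (limma adjusted p = 0.0165), and Ccl8, which did not pass against PBS, was 2.54 ± 0.52 higher (limma adjusted p = 0.0101). Hp, which fell against PBS, was 1.40 ± 0.19 higher than with IL-13 Stat6+/- (limma adjusted p = 0.000346). Il13 differed by -1.96 ± 0.21 (limma adjusted p = 4.48e-05).

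**Figure D4:**
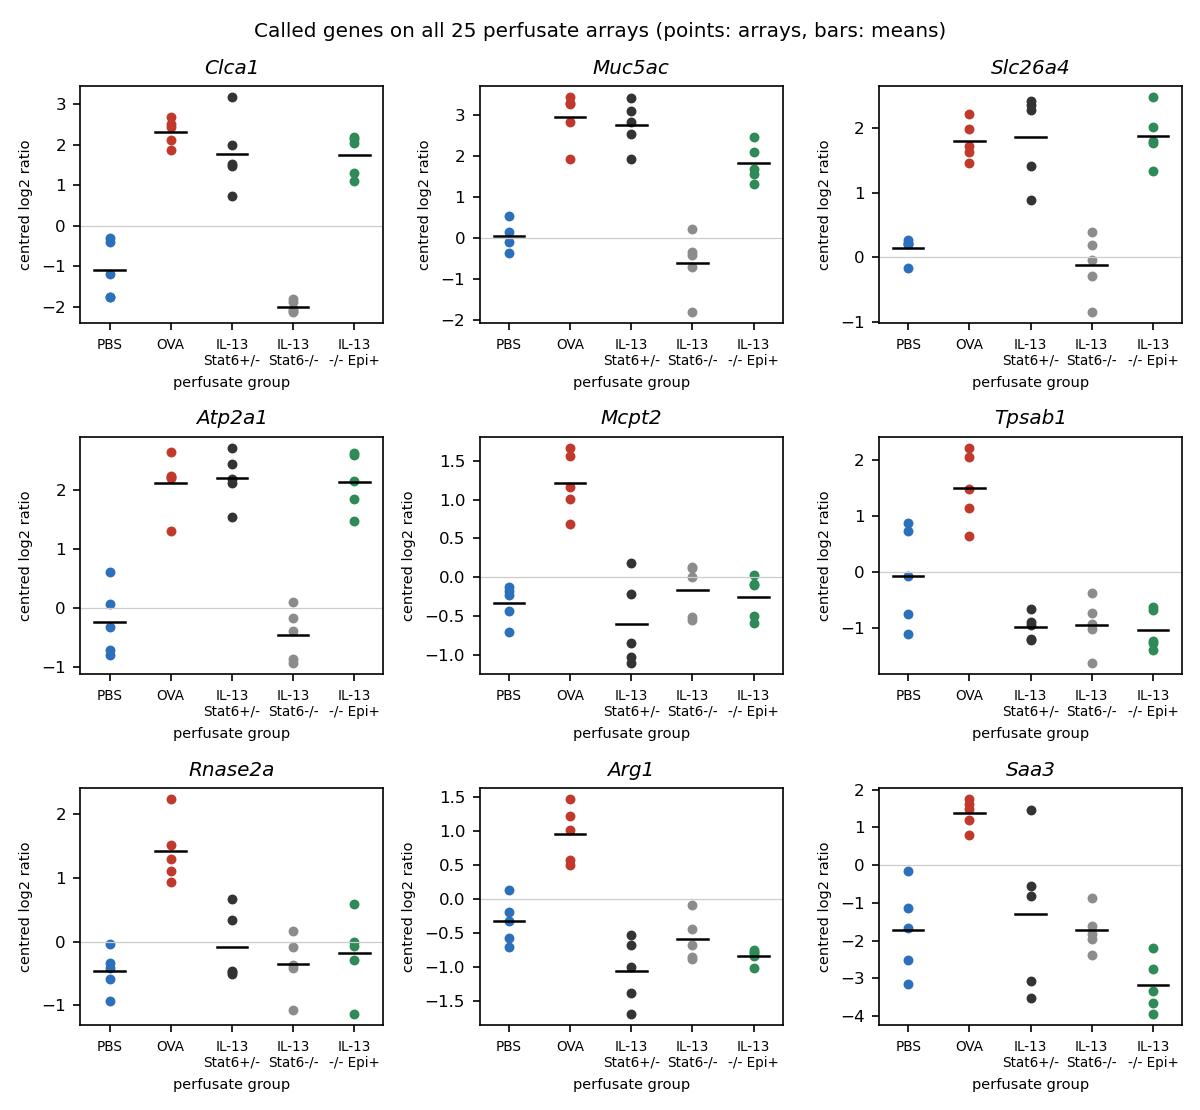
Centred log2 ratios on the 25 perfusate arrays by group, with bars at the means, for 9 genes chosen from those called higher in OVA than in PBS. Clca1, Muc5ac, Slc26a4 and Atp2a1 are high in OVA, IL-13 Stat6+/- and Stat6-/- Epi+ arrays, while Mcpt2, Tpsab1, Rnase2a, Arg1 and Saa3 have their highest means in OVA.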

How the data were processed

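The deposited tables hold log2 ratios of 2-channel arrays, uncentred, per the values. No label states the image analysis or the normalization. The authors' log2 scale was read from ratios that are whole multiples of 0.001. Array medians of the deposited values ran from -0.91 to 0.24 in OVA and from -0.75 to 0.30 in PBS. Every array was centred on its median, spots of one accession were averaged, and gene names came from the platform annotation, which names 15418 of 19152 perfusate spots with 1 symbol and 7 with several.

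limma 3.58.1 in R 4.3.3 (lmFit, eBayes) was fitted to all 25 perfusate arrays with reference preparation as a block, and separately to the 10 whole lung arrays. Benjamini-Hochberg adjustment covered all probes tested, and a call is an adjusted p under 0.05. Groups came from titles. The rule for named genes took every called probe with 1 symbol, the largest change in each direction per gene list at an unadjusted p under 0.01, and preset marker genes. Some further list members are named as examples, chosen after their values were seen. The members and lists were chosen with earlier results of these data known. The fit was tested on simulated data. Alternatives covered centring, scaling, filters, spots, weights, blocks and left-out arrays or preparations. The number of arrays limits the precision.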

Additional observations from a re-analysis of the deposited data

Results flagged for a closer look

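In 10 of 133 pairs of gene and group, 1 array stood far from the others of its group, which chance gives in about 1 in 20. On OVA 29, Cldn2 was 0.36 (others 1.21 to 1.38), Flvcr1 0.16 (1.54 to 1.87) and Hspa1a -0.60 (-2.79 to -2.35). On OVA 28 Retnla was 3.30 (0.91 to 1.24), and on OVA 32 Fbxo32 was 1.84 (0.76 to 1.02). On PBS 24, Cd5l was -0.85 (-0.03 to 0.26) and Ccl11 -1.32 (-0.29 to -0.10). On PBS 22 Mrpl3 was -0.56 (-0.25 to -0.12), on PBS 25 Cd3e was 0.63 (-0.09 to 0.09), and on PBS 26 Slc26a4 was -0.17 (0.20 to 0.27).

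Il1r2 lay in opposite directions in the 2 sample types, with every OVA array below every PBS array in perfusate (difference -0.97) and above it in whole lung (difference 1.71). It did not pass limma's test in whole lung (adjusted p = 0.0881), and its perfusate call ended in 9 of the 10 single-array omissions. The difference between them was not tested.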

How the results depend on the processing

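For OVA against PBS in perfusate (40 probes called), counts were 15 without centring, 66 after centring and scaling (38 of them among the 40), 19 without the reference block, 0 in limma's fit of the 10 arrays alone (1799 at an unadjusted p under 0.05), and 19, 12, 25, 15 and 18 without reference preparations 1.1, 1.2, 1.3, 1.4 and 1.5. Leaving out 1 array gave 17 to 34. For OVA against IL-13 Stat6+/- (603), counts were 108 without centring, 1012 with array weights, 199 without the reference block, 3 in the fit of 10 arrays, and 205, 254, 366 and 202 without preparations 1.1, 1.2, 1.3 and 1.5. Leaving out 1 array gave 324 to 655. For whole lung (299), counts were 36 without centring, 740 with array weights, 105 to 308 leaving out 1 array, and 4 with a replicate block. The replicate numbers do not pair the whole lung samples (correlations of deviations -0.18, -0.10, -0.12 and 0.01), and no perfusate replicate number is shared by the groups. The cause of these changes was not tested.

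Over 882 values of the 33 named called genes, 560 kept the call, 322 lost it and 0 reversed. Clca1, Muc5ac, Atp2a1, Nadsyn1, Scin and Pcdhgb6 lost it in the fit of 10 arrays and in no other alternative run. Of 915 values of genes not called, 12 gained a call (Tff1 in 4 alternatives, Ctss in 3, Pla2g10 and Tff2 in 2 each and Thbs1 in 1) and 24 changed sign. Scgb1a1 was -0.00114 without centring and -0.0787 without preparation 1.4. Cd3e was 0.00879 after scaling, 0.00365 after quantile normalization, and 0.0355 and 0.0396 without preparations 1.1 and 1.2. Ccl11 was -0.0946 with array weights and -0.107 and -0.0765 without preparations 1.3 and 1.4, and Prg2 was -0.00726 without preparation 1.1. Leaving out 1 array, the differences ran from -0.102 to 0.171 for Scgb1a1, -0.0802 to 0.0478 for Cd3e, -0.134 to 0.242 for Ccl11, -0.0879 to 0.348 for Prg2 and -0.0254 to 0.358 for Epx.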

Other observations

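Among genes of lipid mediators, Alox15, a lipoxygenase of eosinophils, macrophages and airway epithelium, differed by 0.60 ± 0.18 between OVA and PBS in perfusate and by 2.62 ± 0.37 in whole lung, where it passed limma's test (adjusted p = 0.00998). Hpgd, which breaks down prostaglandins, did not pass on either set of arrays, with a perfusate difference of -0.82 ± 0.26 and a whole lung difference of -1.16 ± 0.26. Of 23 eicosanoid genes 0 passed in perfusate, with a median of 0.11, and 4 were higher and 1 lower at an unadjusted p under 0.05, against 4.2% and 4.96% of all probes.

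Among 34 matrix and wound response genes, the median was -0.16 and 1 fell (Ccn2), against 0.0652% of all probes. Ccn1, its close relative, differed by -1.52 ± 0.36 and Dcn, the proteoglycan decorin, by -1.20 ± 0.34, and neither passed limma's test (adjusted p = 0.101 and 0.201).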
